A study of Mus musculus with 8 samples.

Results

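The AP-1 transcription factors examined here are the Fos proteins (Fos, Fosb, Fosl1, Fosl2), the Jun proteins (Jun, Junb, Jund) and the related factors Atf3, Maff and Batf. They were chosen by gene name, and are 10 of the 34844 gene names on the array. Every probe that the scanner files assign to them was taken, which gave 11 of the 55681 probes that are not control spots. The cells were bone marrow-derived macrophages, obtained by culturing marrow precursors of 4 male C57BL/6J mice. Cells of each mouse received siRNA aimed at the terminal loop of Y RNAs, which the sample titles give in the plural, or a control siRNA, which gave 4 Y RNA siRNA samples and 4 control siRNA samples. Y RNAs are small noncoding RNAs that bind the Ro60 and La proteins and are cut into shorter fragments, called s-RNYs in the title of the series, which asks for their targets. All cells were of the same strain and sex, both groups were transfected, and the labels used here name neither the siRNA sequences nor a dose or time.

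AP-1 is not one protein but a set of dimers formed through leucine zippers. Jun proteins pair with themselves or with a Fos, ATF or Batf protein, and the pair decides which DNA motif is bound and whether transcription is raised or lowered. Fos, Jun, Junb, Fosb and Atf3 are immediate early genes, switched on within minutes of a stimulus through MAP kinases and the factors SRF, ELK and CREB. In macrophages AP-1 takes part in the response to bacterial products and growth factors, and Fos is also needed to form osteoclasts from the same precursors.

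Each level below is the log2 processed signal of a probe, less the array's own 75th percentile. A level has meaning only against the same probe on another array, since probes differ in how brightly they bind. A difference is the mean level in Y RNA siRNA cells minus that in control siRNA cells, with its standard error (SE) from a limma fit across 26817 probes that stood well above background on 4 or more of the 8 arrays. Of the 11 AP-1 probes, 9 passed this filter, 1 for each gene except Fosl1. Every group holds 4 samples.

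No AP-1 probe passed the test. At an adjusted p under 0.05, 0 of 9 AP-1 probes were called, and 0 of all 26817 probes (0%). Without adjustment, 1 of the 9 AP-1 probes, that of Fos, had a p under 0.05, against 3.33% of all tested probes in either direction and 1.8% on the lower side. Of the 9, 7 were lower on average in Y RNA siRNA cells and 2 were higher, where 48.4% of all tested probes were lower. The median difference was −0.063 over the 9 probes and 0.0036 over all tested probes. Fos, Junb, Jund and Atf3 were lower in 4 of 4 mice, as were 9.02% of all probes, and Maff and Batf were higher in 4 of 4 mice, as were 9.78%. Together 6 of the 9 kept 1 direction in 4 of 4 mice, as did 18.8% of all probes. The 2 groups overlapped for each of the 9 probes, where 1.13% of all probes lay wholly lower and 1.26% wholly higher in Y RNA siRNA cells.

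**Figure D1:**
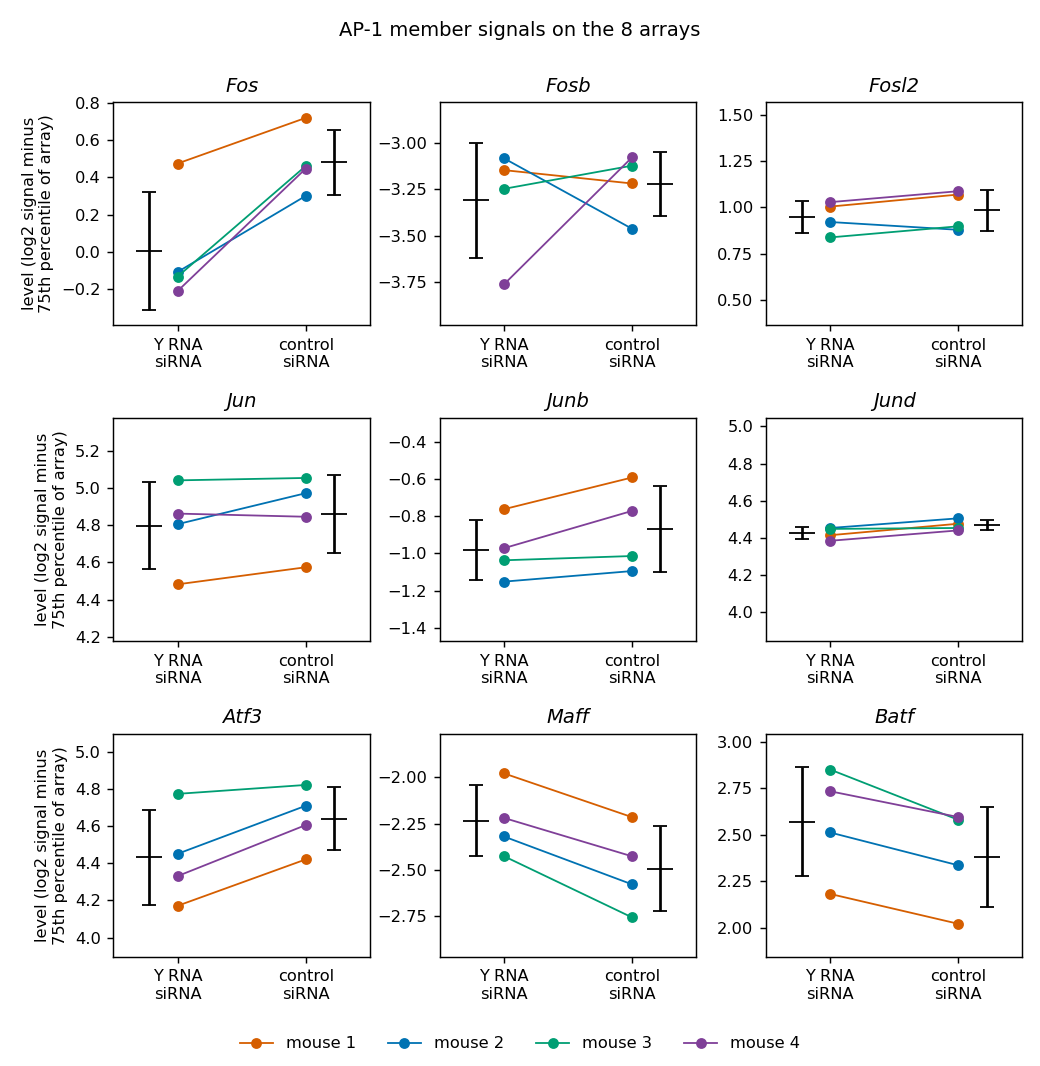
Level of the 9 tested AP-1 probes (y axis, log2 signal minus the 75th percentile of the array) in Y RNA siRNA and control siRNA cells, with a line joining the 2 samples of a mouse and the mean with its SD (n = 4) beside each group. The lines of Fos slope the same way in all 4 mice with a Y RNA siRNA mean of 0.005 and a control siRNA mean of 0.48, while those of Maff and Batf slope the opposite way.

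The promoters of 5 members are shown because these genes had the largest differences or, for Jun, carry the element through which AP-1 acts on its own gene. Each line gives the 150 bases before the start site in RefSeq for build GRCm38.p6, read 5′ to 3′ in the direction of the gene. Capitals mark TGACG on either strand, the core shared by CREB and ATF sites, or the Jun and ATF element TGACATCA.
Fos: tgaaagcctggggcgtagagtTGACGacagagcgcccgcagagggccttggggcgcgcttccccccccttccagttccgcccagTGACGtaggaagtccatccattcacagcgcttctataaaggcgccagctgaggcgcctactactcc
Jun: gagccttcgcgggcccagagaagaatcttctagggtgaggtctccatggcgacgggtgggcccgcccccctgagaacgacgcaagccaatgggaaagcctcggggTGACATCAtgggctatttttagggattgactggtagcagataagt
Atf3: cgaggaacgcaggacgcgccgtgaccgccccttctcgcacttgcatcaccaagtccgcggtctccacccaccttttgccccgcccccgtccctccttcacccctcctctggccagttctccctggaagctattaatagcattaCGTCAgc
Maff: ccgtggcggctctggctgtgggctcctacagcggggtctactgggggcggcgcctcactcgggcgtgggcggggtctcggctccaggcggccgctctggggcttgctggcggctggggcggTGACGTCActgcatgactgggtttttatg
Batf: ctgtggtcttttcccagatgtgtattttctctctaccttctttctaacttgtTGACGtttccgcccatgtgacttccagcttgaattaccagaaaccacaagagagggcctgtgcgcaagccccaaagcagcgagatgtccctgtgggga
The Fos window is chr12:85473740-85473889 on the plus strand and the Jun window is chr4:95052223-95052372 on the minus strand. The Atf3 window is chr1:191183334-191183483 on the minus strand. The Maff window, before the second of its 3 start sites, is chr15:79347370-79347519 on the plus strand, and the Batf window is chr12:85686570-85686719 on the plus strand.

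The Fos window held TGACG beginning 129 and 66 bases before the start, and a TATAAA box at 33 bases. The copy at 66 bases lies where the cAMP response element of this promoter is known to be. In the Maff window shown, the 2 overlapping copies of TGACG form the full palindrome TGACGTCA, at 29 bases. The window before the first start site of Maff held no match to any motif searched. The Jun window held TGACATCA at 45 bases, and the third start site of Maff held the same letters at 45 bases. Windows of 9 of the 10 genes were in the table, 11 windows in all, 3 of them of Maff. TGACG was in 7 of the 11, against 13.3% of 32851 promoter windows of the same length. TGACGTCA was in 1 of the 11 windows, against 1.36% of all promoters, and TGACATCA in 2 of the 11, against 2.32%. The classical AP-1 site TGANTCA was in 0 of the 11 windows, against 4.24%, and TATAAA, searched on the strand of the gene only, in 1 of the 11, against 4.84%. These matches describe letters and not binding, and the other motifs were searched on both strands.

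Fos, which pairs with Jun proteins in AP-1 dimers, was lower on average in Y RNA siRNA cells. Its probe (A_52_P262219, mm9 chr12 from 86817900 to 86817959, plus strand; all probe positions are on mm9) had levels of 0.48, −0.11, −0.13 and −0.21 in Y RNA siRNA cells of mice 1 to 4, against 0.72, 0.30, 0.46 and 0.45 in control siRNA cells. The processed signals behind these levels were 731, 584, 592 and 503 in Y RNA siRNA cells and 869, 794, 851 and 807 in control siRNA cells. The Y RNA siRNA sample was the lower one in each mouse, and the groups overlapped because that of mouse 1 lay above the control samples of mice 2, 3 and 4.

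Fos averaged 0.005 ± 0.32 in Y RNA siRNA cells and 0.48 ± 0.18 in control siRNA cells (SD, n = 4 each). The difference was −0.48 ± 0.16 (SE), a signal of 0.718 times that of the control, with a 95% interval from −0.85 to −0.10, a limma p of 0.0185 and an adjusted p of 1. Within mice it was −0.25, −0.41, −0.60 and −0.66 in mice 1 to 4. Of all 26817 tested probes, 0.914% had a difference as low as that of Fos or lower. With mice as a fixed block in limma the SE was 0.082 and the interval ran from −0.69 to −0.26, with a p of 0.00243 and an adjusted p of 0.379, where 4.53% of all probes were lower at an unadjusted p under 0.05. With the mouse as a random block the p was 0.00192 and the adjusted p 0.233.

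Markers of osteoclasts, which share their precursor with macrophages, were also lower on average in Y RNA siRNA cells. Of 5 osteoclast markers, 4 were measured, namely Ctsk, Acp5, Oscar and Dcstamp, and Calcr was not well above background on any array. A summed level is the log2 of the sum of the levels of a list after these were taken out of log2. It covers every marker of the list, Calcr included, and the brightest probes weigh most, here Ctsk and Acp5. It has meaning only against the summed level of the same list on another array. For the 5 osteoclast markers it was 3.53 to 5.91 in Y RNA siRNA cells and 3.80 to 6.21 in control siRNA cells. The differences within mice 1 to 4 were −0.27, −0.40, −0.29 and −0.36. Both samples of mouse 1 had the lowest summed level of their group, while for Fos both had the highest level. All 4 measured markers were lower on average and 0 were called, with −0.40 for Ctsk, the bone-degrading cathepsin K. Of all tested probes 48.4% were lower. Of 12 macrophage markers 10 were lower and 2 higher, with a median difference of −0.046, against −0.233 for the 4 osteoclast markers. The more frequent direction was thus the same in both lists, but the osteoclast median was the lower one. The 5th percentile of all tested probes was −0.231. The summed level of the macrophage markers differed by −0.003, 0.01, −0.017 and −0.121 within mice 1 to 4. Among the other cell types, the summed levels of T cell markers and of mast cell and basophil markers kept the same direction in each mouse. They are given here for that reason. Those of dendritic cell, neutrophil, B cell, fibroblast and erythroid markers differed in direction between mice. The summed level of 4 T cell markers was −0.64 to −0.35 in Y RNA siRNA cells and −0.42 to −0.27 in control siRNA cells, lower within each mouse. Only Cd3e of the 4 was measured well enough to be tested, and it made up most of the sum. Cd2 was well above background on 3 arrays, Cd3g on 1 and Cd3d on 0. The summed level of 4 mast cell and basophil markers was −2.54 to −0.74 in Y RNA siRNA cells and −2.56 to −0.95 in control siRNA cells, higher within each mouse by 0.022, 0.012, 0.21 and 0.23. Only Kit of these 4 was tested, and it made up most of the sum. Mcpt8, Cpa3 and Ms4a2 were well above background on 0 arrays. The part of these markers in the result for Fos was not tested. In bulk RNA, fewer cells of a kind and less RNA per cell cannot be told apart. Without mouse 4, whose control sample had an RNA integrity number of 8 where the others had 10, the Fos difference was −0.42.

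Fos and Batf were each printed on 10 spots per array, which shows how well one array measures the probe. The spots of Fos on one array had an SD of 0.054 to 0.099, over 8 to 10 spots that carried no outlier flag. In mouse 1 they ranged between 0.40 and 0.59 in Y RNA siRNA cells and between 0.62 and 0.79 in control siRNA cells. In mouse 2 they ranged between −0.18 and 0.035 in Y RNA siRNA cells and between 0.21 and 0.46 in control siRNA cells. The ranges lay further apart in the other mice. In mouse 3 they were −0.28 to −0.010 in Y RNA siRNA cells and 0.36 to 0.55 in control siRNA cells, and in mouse 4 they were −0.34 to −0.12 in Y RNA siRNA cells and 0.28 to 0.66 in control siRNA cells. The Fos spots of the 2 arrays thus did not overlap in 4 of 4 mice, with Y RNA siRNA lower, which held for 0.41% of the 244 tested probes on 10 or more spots, namely for Fos alone. Spots of one array share the RNA, so this is precision of the array and not replication of the treatment.

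**Figure D2:**
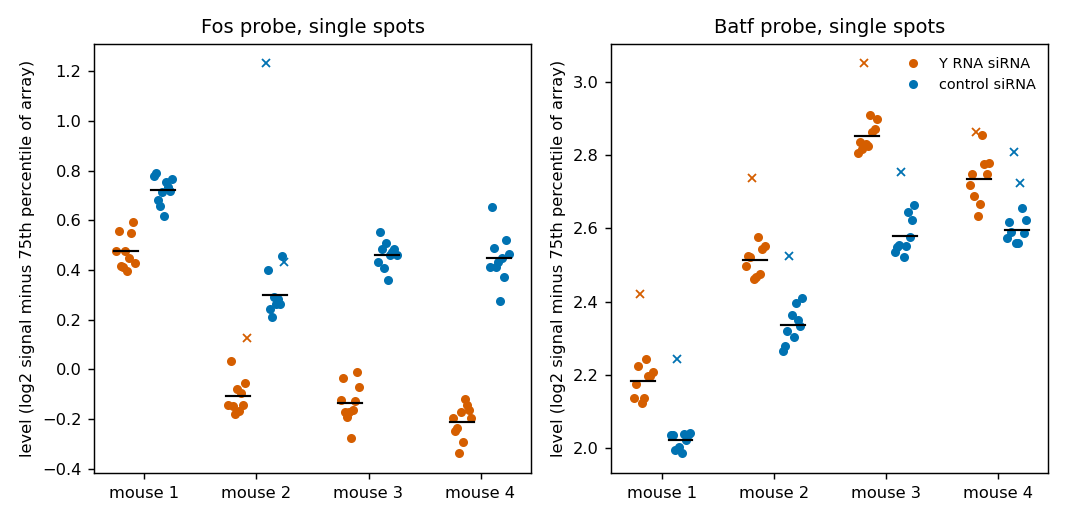
Level of the single spots of the Fos probe and the Batf probe (y axis, log2 signal minus the 75th percentile of the array) for each mouse, with Y RNA siRNA left of control siRNA. Bars are means and crosses are spots with an outlier flag, which were left out of the means; the Fos spots of the 2 arrays are apart in each mouse, and those of Batf overlap in mouse 4.

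Fosb, the close relative of Fos that is induced by the same stimuli, had a dim probe (A_55_P2113051, chr7 from 19888168 to 19888227, minus strand). Its levels were −3.15, −3.08, −3.25 and −3.76 in Y RNA siRNA cells and −3.22, −3.46, −3.12 and −3.08 in control siRNA cells. The Y RNA siRNA sample was higher in mice 1 and 2 and lower in mice 3 and 4. The difference was −0.089 ± 0.16 (SE), with an interval from −0.46 to 0.28 and a limma p of 0.591, and without mouse 4 it was 0.11.

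Fosl2, which encodes Fra-2 and lacks the strong activation domain of Fos, differed little between groups. Its brighter probe (A_55_P1995195, chr5 from 32460076 to 32460135, plus strand) had levels of 1.00, 0.92, 0.84 and 1.03 in Y RNA siRNA cells and 1.07, 0.88, 0.90 and 1.09 in control siRNA cells. The difference was −0.035 ± 0.075 (SE), with an interval from −0.21 to 0.14 and a limma p of 0.649. A second Fosl2 probe (A_51_P507242, chr5 from 32455088 to 32455147) was well above background on 0 of 4 Y RNA siRNA arrays and 1 of 4 control arrays and gave no comparison. Fosl1, which encodes Fra-1, has 1 probe (A_51_P308796, chr19 from 5455496 to 5455555, plus strand), and it was not well above background on any of the 8 arrays.

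Jun, the central partner in AP-1 dimers, had similar levels in the groups and varied more between mice. Its probe (A_55_P2158990, chr4 from 94716928 to 94716987, minus strand) had levels of 4.48, 4.81, 5.04 and 4.86 in Y RNA siRNA cells and 4.57, 4.97, 5.06 and 4.85 in control siRNA cells. Mouse 1 was the lowest in both groups. The difference was −0.063 ± 0.14 (SE), with an interval from −0.39 to 0.27 and a limma p of 0.669, and it was 0.042 without the Y RNA siRNA sample of mouse 1 and 0.001 without the control sample of mouse 3.

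Junb, which can restrain Jun and also acts as an activator in macrophages, was lower in the Y RNA siRNA sample of each mouse by small amounts. Its probe (A_55_P2011106, chr8 from 87501881 to 87501940, minus strand) had levels of −0.76, −1.15, −1.04 and −0.97 in Y RNA siRNA cells and −0.59, −1.10, −1.01 and −0.77 in control siRNA cells. The difference was −0.11 ± 0.13 (SE), with an interval from −0.41 to 0.19 and a limma p of 0.41. In the fit with a fixed mouse block the p was 0.0745.

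Jund, the Jun protein that is made steadily in resting cells, had the narrowest spread of the members. Its probe (A_51_P357744, chr8 from 73224436 to 73224495, plus strand) had levels of 4.41, 4.45, 4.45 and 4.38 in Y RNA siRNA cells and 4.48, 4.51, 4.45 and 4.44 in control siRNA cells. The difference was −0.044 ± 0.048 (SE), with an interval from −0.15 to 0.067 and a limma p of 0.391. Jund was among the 7 of 9 members whose interval lay within 1.5-fold either way, as did 83.8% of all tested probes, and Fos and Batf were the members whose interval did not.

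Atf3, a stress-induced factor that limits inflammatory genes in macrophages, was lower on average. Its probe (A_52_P452689, chr1 from 192994547 to 192994606, minus strand) had levels of 4.17, 4.45, 4.77 and 4.33 in Y RNA siRNA cells and 4.42, 4.71, 4.82 and 4.61 in control siRNA cells. The Y RNA siRNA sample was the lower one in each mouse, with differences of −0.25, −0.26, −0.048 and −0.28, and the groups overlapped. The difference was −0.21 ± 0.14 (SE), with an interval from −0.53 to 0.11 and a limma p of 0.175. In the fit with a fixed mouse block the p was 0.0144 and the adjusted p 0.467, and with it as a random block they were 0.0422 and 0.532.

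Maff, a small Maf protein that has a leucine zipper but no activation domain, was higher on average in Y RNA siRNA cells. Its probe (A_52_P608322, chr15 from 79189442 to 79189501, plus strand) had levels of −1.98, −2.32, −2.43 and −2.22 in Y RNA siRNA cells and −2.22, −2.58, −2.76 and −2.43 in control siRNA cells. The probe was dim, with processed signals of 133, 126, 121 and 125 in Y RNA siRNA cells and 113, 108, 91.4 and 110 in control siRNA cells. The Y RNA siRNA sample was the higher one in each mouse, by 0.24, 0.26, 0.33 and 0.21, which is a narrow spread beside that between mice. The difference was 0.26 ± 0.14 (SE), a signal 1.2 times that of the control, with an interval from −0.056 to 0.57, a limma p of 0.0949 and an adjusted p of 1. A difference as high or higher was found for 3.23% of all tested probes. In the fit with a fixed mouse block the p was 0.00182 and the adjusted p 0.365, where 4.16% of all probes were higher at an unadjusted p under 0.05. With normexp background correction the difference was 0.12, and in the log2 values deposited by the authors it was 0.16.

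Batf, which pairs with Jun proteins and acts with IRF factors in immune cells, was also higher on average. Its probe (A_51_P114616, chr12 from 87049872 to 87049929, plus strand) had levels of 2.18, 2.51, 2.85 and 2.74 in Y RNA siRNA cells and 2.02, 2.34, 2.58 and 2.60 in control siRNA cells. The spread between mice exceeded the difference between groups, and mouse 1 was the lowest in both groups. Within mice the Y RNA siRNA sample was higher by 0.16, 0.18, 0.27 and 0.14. The difference was 0.19 ± 0.18 (SE), with an interval from −0.22 to 0.60 and a limma p of 0.324. In the fit with a fixed mouse block the p was 0.00787 and the adjusted p 0.436. Its spots on one array had an SD of 0.022 to 0.067, and the spots of the 2 arrays did not overlap in 3 of 4 mice, which was so, with Y RNA siRNA higher, for 2.05% of the 244 probes on 10 or more spots.

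**Figure D3:**
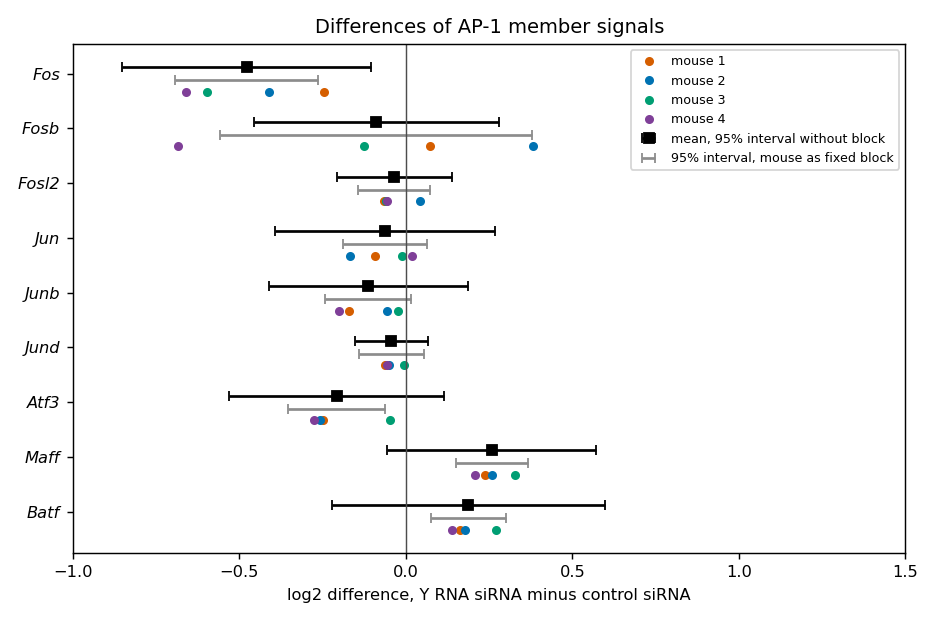
Difference of each tested AP-1 probe (x axis, log2, Y RNA siRNA minus control siRNA) with its 95% interval without a block (black), its interval with the mouse as a fixed block (grey) and the difference within each mouse (coloured points). The black interval lies wholly below 0 for Fos alone, and the grey intervals of Fos, Atf3, Maff and Batf do not reach 0; 0 of the 9 had an adjusted p under 0.05 in either fit.

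Across the 9 probes, 4 had an unadjusted p under 0.05 with the fixed block, against 8.68% of all tested probes, and 3 with the random block, against 9.06%. With the fixed block 0 AP-1 probes and 0% of all probes had an adjusted p under 0.05, and with the random block 0 AP-1 probes and 0.0112% of all probes did.

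For several members the levels of the 4 mice lay as far apart as those of the 2 siRNAs, or further. The mean of the 2 samples of a mouse spanned 0.50 for Fos between the lowest and the highest mouse, 0.52 for Jun, 0.50 for Atf3, 0.49 for Maff and 0.62 for Batf, but 0.067 for Jund. Mouse 1 stood apart from the mean of the other mice, by 0.47 for Fos, 0.33 for Junb and 0.36 for Maff. The same difference was −0.40 for Jun, −0.32 for Atf3 and −0.50 for Batf. The same mouse stood apart over all probes: the first principal component, with 41.1% of the variance, placed both samples of mouse 1 at −41.9 and −42.9. Its 2 arrays also had the lowest 75th percentiles before scaling, 9.04 each, where the others had 9.19 to 9.34. They lay side by side on the slide, as did the arrays of each other mouse. Mouse, array brightness and slide position cannot be told apart here.

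**Figure D4:**
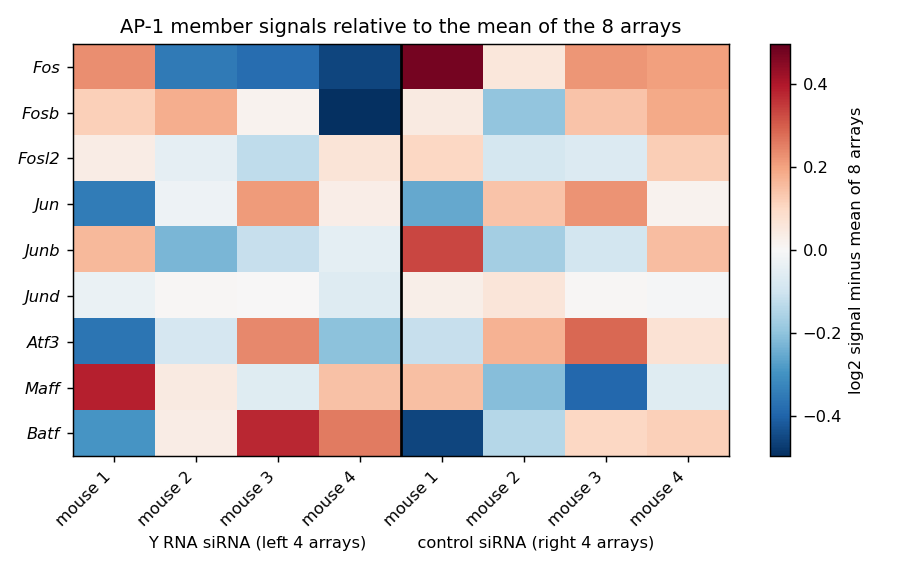
Level of each tested AP-1 probe relative to its mean over the 8 arrays (colour, log2), with Y RNA siRNA samples on the left and control siRNA samples on the right, mice 1 to 4 in each. Fos, Junb and Maff are high and Jun, Atf3 and Batf low in both samples of mouse 1.

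Over the 8 arrays, Jun and Atf3 had a Pearson r of 0.872 with each other and −0.862 and −0.935 with Maff. Fos had an r of 0.723 with Junb and −0.761 with Batf, and of −0.033 with Atf3 and −0.016 with Maff. The 8 arrays share 4 mice and mouse 1 stood apart, so these values describe the 8 arrays and carry no test.

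Of 12380 named genes ranked by Pearson r with Fos over the 8 arrays, the 8 highest were, in order, Gnb2 (0.960), Irf2bp1, Crebzf, Tox4, Gnai2, Bbs12, Ptbp3 and Gtpbp10 (0.940). Gnb2 and Gnai2 encode subunits of heterotrimeric G proteins. Tox4 had levels of 0.67, −0.053, 0.21 and 0.08 in Y RNA siRNA cells and 0.85, 0.36, 0.61 and 0.50 in control siRNA cells, a difference of −0.35. The differences of the other 7 were smaller, between −0.14 and −0.062. The lowest were Dennd10 (−0.971), the death receptor gene Tnfrsf21 (−0.965), the stress factor gene Ddit3 (−0.961) and Ccdc66 (−0.960). Ddit3, which encodes the bZIP protein CHOP, had levels of 2.23, 2.42, 2.54 and 2.50 in Y RNA siRNA cells and 2.14, 2.28, 2.27 and 2.30 in control siRNA cells. With 8 arrays, 90 probes reached an r of 0.9 or more with Fos. Because Fos was lower on average in Y RNA siRNA cells, genes picked by their r with it tend to differ between the groups as well. Their levels and differences describe the ranking and carry no test.

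Genes that feed AP-1, share its motif or follow it were examined as lists, and 0 members of each list had an adjusted p under 0.05 without a block or with either block. The other bZIP genes of the wider family had 18 of 20 tested, with 7 lower, 11 higher and a median difference of 0.014. Batf3, a relative of Batf, had a difference of 0.17 ± 0.16 (SE) and Creb5 one of 0.14 ± 0.13 (SE), and each was higher in 4 of 4 mice. Of the 18, these 2 were higher and 1 was lower in 4 of 4 mice, against 9.78% and 9.02% of all probes.

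The MAP kinase and SRF list had 39 of 41 genes tested, with 18 lower, 21 higher and a median of 0.003. In 4 of 4 mice 8 of the 39 were lower and 4 higher, against 9.02% and 9.78% of all probes. Mapk9, the gene of the Jun kinase JNK2, had levels of 2.29, 2.40, 2.31 and 2.26 in Y RNA siRNA cells and 2.06, 2.32, 2.12 and 2.15 in control siRNA cells, a difference of 0.15 ± 0.070 (SE). Map2k3, a kinase that activates p38, differed by −0.12 ± 0.067 (SE) and the kinase gene Braf by −0.084 ± 0.062 (SE). The list of genes for repression and turnover of AP-1 had 13 of 13 tested, with 11 lower, 2 higher and a median of −0.015. In 4 of 4 mice 0 of these were lower and 0 higher. Sirt1, a deacetylase, differed by 0.25 ± 0.22 (SE), and that value came from 1 sample: its level was 0.87 in the control sample of mouse 4 and between 1.76 and 1.93 in the other 7. That is the sample with the lower RNA integrity number.

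The list of known AP-1 target genes, taken from work in macrophages and fibroblasts, had 26 of 30 tested, with 16 lower, 10 higher and a median of −0.028. The adhesion receptor gene Cd44 had levels of 3.35, 3.28, 3.57 and 3.39 in Y RNA siRNA cells and 3.48, 3.57, 3.78 and 3.50 in control siRNA cells, a difference of −0.19 ± 0.091 (SE) with a limma p of 0.075. Plaur, the urokinase receptor gene, differed by −0.17 ± 0.086 (SE) and the heme oxygenase gene Hmox1 by −0.13 ± 0.075 (SE). These 3 genes were lower in 4 of 4 mice, as were 6 of the 26 genes in all, and 1 was higher in 4 of 4. Of all probes, 9.02% were lower and 9.78% higher in 4 of 4 mice.

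Many of the other immediate early genes on this list are induced by signals that also induce Fos. The list also holds Klf2, which is high in resting macrophages, and Srf, which encodes an upstream factor. Of 25 genes 22 were tested, with 16 lower, 6 higher and a median of −0.052, where 48.4% of all tested probes were lower. In 4 of 4 mice 7 genes were lower and 0 higher, against 9.02% and 9.78% of all probes. Klf4 had levels of −0.10, −0.085, −0.039 and −0.084 in Y RNA siRNA cells and −0.030, 0.17, 0.091 and 0.11 in control siRNA cells, a difference of −0.16 ± 0.058 (SE) with a limma p of 0.0243 and an adjusted p of 1. Its groups did not overlap, as was so on the lower side for 1.13% of all probes, though the control sample of mouse 1 lay close to the highest Y RNA siRNA sample. Klf2, a related factor that is high in resting macrophages, differed by −0.26 ± 0.12 (SE). Egr1, an SRF target, had levels of −1.12, −2.01, −2.36 and −1.70 in Y RNA siRNA cells and −0.63, −1.80, −1.79 and −1.45 in control siRNA cells, a difference of −0.38 ± 0.33 (SE). As for Fos, both samples of mouse 1 were the highest of their group for Egr1.

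**Figure D5:**
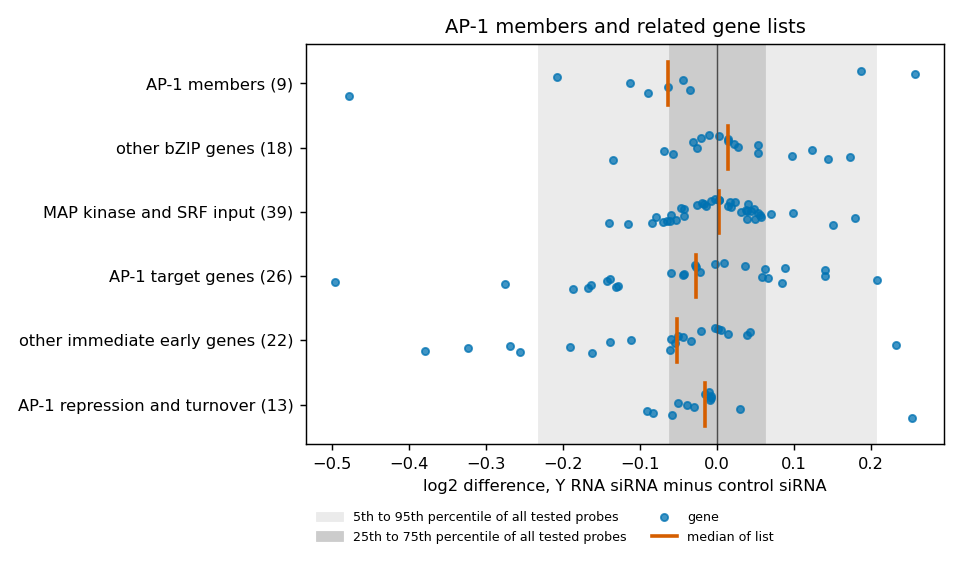
Difference of each tested gene (x axis, log2, Y RNA siRNA minus control siRNA) in the AP-1 members and the 5 related lists, with the median of each list as a bar. The dark and light bands hold the 25th to 75th percentile (−0.061 to 0.062) and the 5th to 95th percentile (−0.231 to 0.207) of all tested probes, and the medians of the lists lie between −0.063 and 0.014.

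As for the series as a whole, between 48.68% and 50.73% of each array's spots exceeded background clearly, 0 spots were saturated, and the correlation between any 2 arrays was 0.988 to 0.997. Of 12 macrophage markers, 12 were well above background on all 8 arrays, with a summed level of 10.75 to 10.99 in Y RNA siRNA cells and 10.77 to 11.00 in control siRNA cells. Of the markers of other cells, some were well above background on all 8 arrays, namely S100a8, S100a9, Elane and Camp of neutrophils, Col1a1, Col1a2 and Dcn of fibroblasts, Cd79a and Cd79b of B cells, Cd3e of T cells, Kit of mast cells and Epor of erythroid cells. Others of the same lists were well above background on 0 arrays, among them Ngp and Ly6g of neutrophils, Lum and Pdgfra of fibroblasts, Ms4a1 and Pax5 of B cells, and Klf1, Alas2 and Hbb-b1 of erythroid cells. Of 5 dendritic cell markers 0 were well above background on all 8 arrays, and Flt3, Cd209a and Xcr1 were so on 0. The array has 0 probes named for a Y RNA gene, so the knockdown was not checked. On the slide, columns 1 and 3 held Y RNA siRNA arrays and columns 2 and 4 held controls, so slide column and siRNA cannot be told apart.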

How the data were processed

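RNA of 8 samples (0.2 µg each) was labelled with Cy3, per the labels, and put on Agilent mouse arrays of 1 colour. The scanner files hold intensity values made with Agilent Feature Extraction 10.7.3.1, per the file headers, with the processed signal background-subtracted and not scaled between arrays; probe positions are on mm9. The log2 values in the authors' deposited table come with no stated method (column medians 6.263 to 6.275), and it served as an alternative only.

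Of 62976 spots per array, 3671 control spots and spots with an outlier flag were left out, and the spots of a probe were averaged. Levels were log2 processed signal minus the 75th percentile of the array (9.04 to 9.34). Probes that stood well above background on 4 or more of 8 arrays were tested with limma 3.58.1 (R 4.3.3; lmFit and eBayes, two-sided, Benjamini-Hochberg over all tested probes, threshold 0.05). A step on simulated data checked the fit. The main fit had no block. The replicate numbers of the labels were read as mice, since the design names 4 mice. Deviations of same-numbered samples from their group means correlated at 0.587, 0.142, 0.533 and 0.248 in mice 1 to 4. Of 8 arrays, 7 correlated best with the same-numbered array of the other group. Same-numbered arrays also lay side by side on the slide, so a shared mouse and slide position cannot be told apart in these correlations. The pairing by mouse thus rests on the numbers in the labels.

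The members and gene lists were chosen with earlier results of these data known. All members are named; from each list, up to 3 genes with the smallest unadjusted p (1 such gene is not reported here); and the 8 genes with the highest and 4 with the lowest r with Fos. Some lists share genes (Dusp1, Ier3, Gadd45b, Srf, Zfp36 and Jdp2). Promoter sequences and newer gene symbols came from RefSeq tables for GRCm38.p6. Alternatives were other background corrections, scalings, filters, probe summaries and blocks, the deposited table, and leaving out each array or mouse. The number of arrays limits the precision.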

Additional observations from a re-analysis of the deposited data

Results flagged for a closer look

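The Fos level in the Y RNA siRNA sample of mouse 1 stood apart from the other 3 of its group. It was 0.475, and the next value was −0.109, a gap of 0.851 of the range of the group, past Dixon's critical value for 4 samples. Of 22 groups of 4 tested over the 11 AP-1 probes, this was the only one past that value, and chance puts about 1 in 20 past it. The control sample of mouse 1 also had the highest Fos level of its group, 0.72. Without the Y RNA siRNA sample of mouse 1 the Fos difference was −0.64, and without both samples of mouse 1 it was −0.56 with a limma adjusted p of 0.578.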

How the results depend on the processing

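No AP-1 probe was called under any of the 12 alternative settings or with any array or mouse left out. The replicate block changed no call of a member; with the mouse as a fixed replicate block 0 of all probes were called, and with it as a random replicate block 3 were. The median difference of the members was −0.034 with median centring, which moved the median of all probes to 0.033, and between −0.094 and −0.040 with 1 array or mouse left out; the median of the MAP kinase and SRF list was 0.032 with median centring, and that of the AP-1 target list lay between −0.125 and −0.004 with an array or mouse left out, the lowest without the control sample of mouse 1. Over the 12 alternatives Fos ranged between −0.50 and −0.44 (limma adjusted p 0.233 to 1), Atf3 between −0.23 and −0.18, Batf between 0.18 and 0.22, and Maff between 0.12 with normexp correction and 0.29. With an array or mouse left out the ranges were −0.64 to −0.40 for Fos, −0.32 to −0.12 for Atf3, 0.17 to 0.35 for Maff, 0.066 to 0.32 for Batf, −0.19 to −0.021 for Junb and −0.057 to −0.030 for Jund. The sign turned for Jun (0.042 without the Y RNA siRNA sample of mouse 1, 0.001 without the control sample of mouse 3, lowest −0.16), for Fosl2 (0.001 without the Y RNA siRNA sample of mouse 3, lowest −0.070) and for Fosb (0.062 without the Y RNA siRNA sample of mouse 4, 0.109 without mouse 4, lowest −0.25). The causes were not tested. Fosl1 and the second Fosl2 probe gave no comparison because their signal was too near background.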
